A study of Mus musculus with 27 samples.

Results

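RNA from the prefrontal cortex (PFC) of 4 homozygous Shank2-mutant mice and 4 wild-type mice, all 12 weeks of age, was compared (hereafter, W12-HM and W12-WT). These 8 mice were chosen by genotype and age alone from the 27 mice of the series, whose other groups are heterozygotes of the same age (W12-HT, n = 4) and mice of the 3 genotypes at 3 weeks (W3, n = 5 for each). All were C57BL/6 males, each sequenced as a library of its own from the medial PFC, and no treatment is named in the labels. The mutant line, B6N.129S4-Shank2tm1Mgle, lacks exons 6 and 7 of *Shank2*, and its name records a 129S4 origin of the allele. The authors' values are DESeq2-normalized counts per gene, summed from transcript abundances, and 17218 of the 18757 genes in the table had a mean of at least 10 over the 8 mice and were tested.

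*Shank2* is a scaffold of the postsynaptic density, the protein mesh beneath the excitatory synapse, where it ties glutamate receptors to signalling proteins and to actin. Loss of *Shank2* is known to alter NMDA receptor function and social behavior in mice, and SHANK2 mutations occur in people with autism spectrum disorder. The comparison asks which transcripts of the adult PFC differ when both copies of the gene carry the deletion. Ribosomal proteins, which recur below, are the structural parts of the particles that translate mRNA, and parvalbumin interneurons are fast-firing inhibitory cells that control the output of cortical neurons.

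Differentially expressed genes (DEGs) were defined by an adjusted p value under 0.05 in limma, with the 3 genotypes of W12 fitted together. There were 24 DEGs in W12-HM, 0.139% of the genes tested, of which 4 were higher (0.0232%) and 20 lower (0.116%). Of the 24, 21 were protein-coding, and the mean in W12-WT ranged from 0 to 17477 normalized counts. Among the higher DEGs, *Gm26793* and *Gm7334* had W12-WT means of 2.52 and 0. They reached the mean of 10 needed for testing only through the W12-HM mice. All 24 DEGs separated the groups, with no W12-HM mouse inside the range of the W12-WT mice, as did 6.48% of all genes tested (1116). An unadjusted p value under 0.05 was reached by 1962 genes (11.4%), 947 higher and 1015 lower, where 860.9 would be expected by chance. The median log2 fold change over all genes was 0.00218, which the authors' normalization, by centring the ratios of genes, keeps near 0. The changes were small for most DEGs, and 10 of the 24 exceeded a fold change of 1.5.

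**Figure D1:**
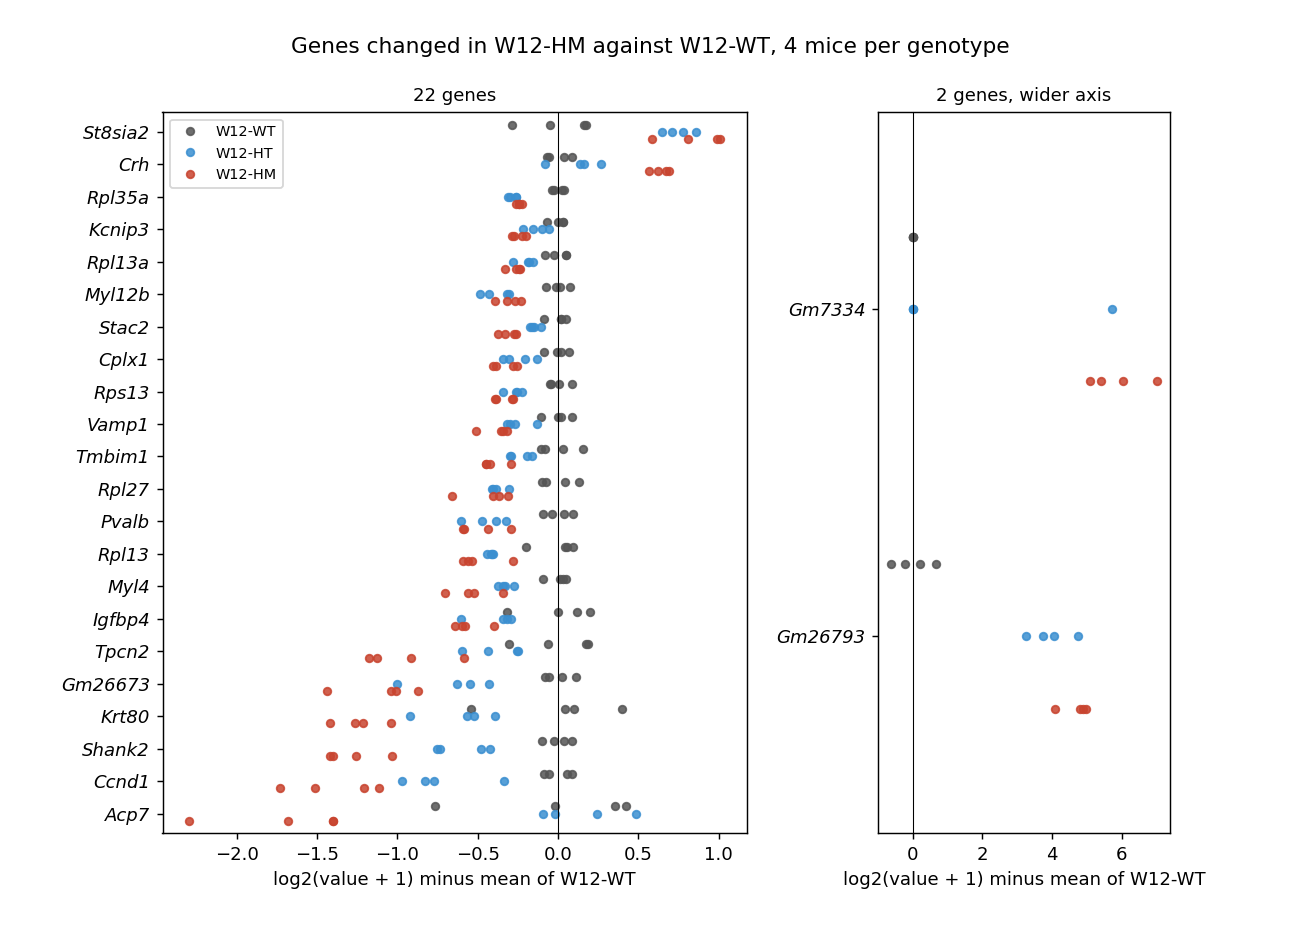
Each point is a mouse, plotted as its log2 normalized count (plus 1) minus the W12-WT mean of that gene, for the 24 genes that changed in W12-HM against W12-WT. The 4 W12-HM mice lie to the left of every W12-WT mouse for 20 genes and to the right for *St8sia2*, *Crh*, *Gm7334* and *Gm26793*. The W12-HT mice are drawn for comparison.

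The number of DEGs depended on single mice. It was 5 without W12-WT 2 or without W12-WT 4, 6 without W12-WT 3, 7 without W12-HM 1 and 45 without W12-HM 4, and *Shank2*, *Gm26793*, *Ccnd1* and *Krt80* passed in all 8 such fits. It was also 11 (7 of them among the 24) when the heterozygotes were left out of the fit and 15 (14 of them among the 24) after values were corrected for the length and GC content of transcripts.

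The targeted gene was measured first. *Shank2* (ENSMUSG00000037541, chr7:144001928-144424494 in GRCm38, plus strand) was at 7406, 7670, 7089 and 6737 normalized counts in the 4 W12-WT mice and at 3015, 2737, 2698 and 3528 in the 4 W12-HM mice. The highest mutant was thus below the lowest wild type, and the mutant mean was 41.4% of the wild-type mean. The log2 fold change was -1.28 (SE 0.09, adjusted p = 5.21e-06), and the two-sided exact permutation test gave p = 0.0286, the smallest value that 4 mice against 4 allow. W12-HT mice lay between the groups, from 4289 to 5385, and *Shank2* was lower in W12-HM than in W12-HT as well (log2 fold change -0.68, adjusted p = 0.0224). The values are totals per gene, so transcripts that lack exons 6 and 7 were counted together with any others, and RNA remained at a measurable level in every homozygote.

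The closest relatives of *Shank2* did not pass the threshold. *Shank1* was at 21272 to 26045 in W12-WT and 21288 to 28190 in W12-HM (log2 fold change 0.10, SE 0.09, adjusted p = 0.719). *Shank3* was at 8733 to 10354 and 8148 to 10166 (0.02, SE 0.07, adjusted p = 0.959). The ranges of the 2 genotypes overlapped for both genes. Of 31 other scaffolds and Shank partners of the postsynaptic density, 0 passed the adjusted threshold, while at an unadjusted p value under 0.05 there were 7 higher (against 5.5% of all genes) and 1 lower (against 5.89%). The lower member was *Iqsec1*, an exchange factor for Arf GTPases, at 10426 to 11030 in W12-WT and 8865 to 10039 in W12-HM (log2 fold change -0.19, adjusted p = 0.21).

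*Gm26793* and *Ccnd1*, the DEGs with the smallest p values after *Shank2*, lay beside it on chromosome 7. *Tpcn2* lay there too, with a larger p value than many DEGs elsewhere. *Gm26793*, an antisense transcript annotated 470.1 kb from *Shank2* (chr7:144894560-144897461, minus strand), was at 2.81, 1.17, 1.84 and 4.24 in W12-WT and at 103, 97.9, 91.9 and 55.4 in W12-HM. The lowest mutant was far above the highest wild type (log2 fold change 4.68, SE 0.34, adjusted p = 5.93e-06). Under other processing choices this log2 fold change ranged from 2.93 to 4.77. *Ccnd1*, which encodes cyclin D1, the driver of entry into the cell cycle, was at 1584, 1618, 1439 and 1467 in W12-WT and at 660, 535, 703 and 460 in W12-HM. It fell by 1.39 on the log2 scale (SE 0.13, adjusted p = 0.000166), to 38.6% of the wild-type mean. *Tpcn2*, an ion channel of endosomes and lysosomes 762.0 kb from *Shank2*, was at 77.3 to 109 in W12-WT and 41.8 to 63.3 in W12-HM (log2 fold change -0.95, SE 0.17, adjusted p = 0.036).

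Within 1 Mb of *Shank2*, 3 of 24 genes tested were DEGs (12.5%, against 0.139% of all genes), and 9 had an unadjusted p value under 0.05 (37.5%, against 11.4%). Both counts include *Gm26793* (mean 2.52 in W12-WT and 87.1 in W12-HM), which was tested only because of its level in W12-HM. Within 5 Mb there were still the same 3 DEGs, among 100 genes (3%), and within 20 Mb the same 3 among 271 (1.11%). An unadjusted p value under 0.05 was reached by 21 of the 100 (21%) and by 33 of the 271 (12.2%). Toward the chromosome end, the farthest gene tested was *Mrgprf* at 876.3 kb, so that the 5 Mb window added genes only on the other side. Among the 16946 genes farther away or on other chromosomes, 20 were DEGs (0.118%). The changes did not follow distance alone. *Cttn*, a Shank-binding regulator of actin and the nearest gene tested at 11.2 kb, had a log2 fold change of -0.01 (SE 0.06), and *Ano1*, a chloride channel at 164.1 kb, had -0.12 (SE 0.14, adjusted p = 0.805).

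**Figure D2:**
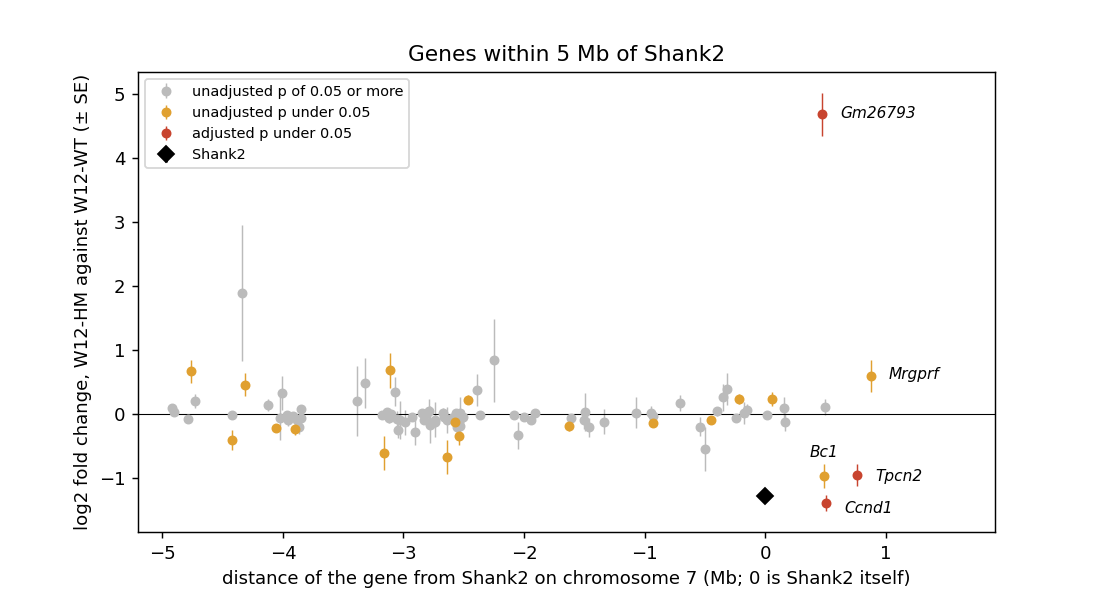
Log2 fold change in W12-HM against W12-WT (± SE) of the 100 genes tested within 5 Mb of *Shank2*, against the distance of each gene from it in Mb, with *Shank2* itself at 0. The 3 DEGs lie between 0.470 and 0.762 Mb on the side toward the chromosome end, and most other genes lie near 0.

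Other genes beside *Shank2* were described without passing. *Bc1*, a small noncoding RNA carried into dendrites, was at 484, 397, 486 and 496 in W12-WT and at 237, 293, 294 and 154 in W12-HM, with no overlap (log2 fold change -0.97, SE 0.19, adjusted p = 0.0662). It lies 490.0 kb from *Shank2*, between *Gm26793* and *Ccnd1*. A pair of genes with a mean under 10, singled out after their values were seen, were not in the fit. *Fgf15*, a growth factor whose exons share 761 bases with *Gm26793* on the opposite strand, was at 0, 0, 0.856 and 0.794 in W12-WT and at 18.3, 20.2, 18.6 and 6.17 in W12-HM. The libraries did not keep strand, so that reads of *Fgf15* and *Gm26793* cannot be told apart where they overlap. *1810010D01Rik*, 781.3 kb away, was at 10.1, 14.6, 15.8 and 12.8 in W12-WT and at 0.723, 0, 0 and 1.97 in W12-HM. In the W3 mice, the table gave a mean of 6.13 (n = 5) in W3-WT and listed it at 0 in all 5 W3-HM mice. Whether the chromosome around the deletion is of C57BL/6 or 129S4 origin in these mice was not tested.

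Of the 24 DEGs, 8 were on chromosome 7 (0.587% of the 1363 genes tested there, against 0.139% of all genes). This count includes *Shank2* itself and *Gm26793*, *Ccnd1* and *Tpcn2* beside it. Those far from *Shank2* included *St8sia2*, which adds polysialic acid to the adhesion molecule NCAM. It was at 70.9, 97.7, 83.4 and 96.8 in W12-WT and at 175, 130, 173 and 152 in W12-HM, so that all mutants lay above the wild types (log2 fold change 0.85, SE 0.13, adjusted p = 0.0192). *Acp7*, an acid phosphatase, was at 20.3 to 47.4 in W12-WT and 6.36 to 12.7 in W12-HM (log2 fold change -1.69, SE 0.29, adjusted p = 0.0332). The W12-HT mice had 32.9 to 49.5 of it and thus overlapped the wild types.

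Cytosolic ribosomal protein genes made up 5 of the 20 lower DEGs. *Rpl13* was at 5713, 4655, 5558 and 5519 in W12-WT and at 3626, 3549, 3685 and 4400 in W12-HM (log2 fold change -0.49, SE 0.07, adjusted p = 0.0112). *Rps13* was at 1578, 1727, 1570 and 1632 in W12-WT and at 1237, 1338, 1243 and 1331 in W12-HM (-0.34, SE 0.05, adjusted p = 0.016). The groups were apart for both genes, although W12-HM 4 and W12-WT 2 came close for *Rpl13*. *Rpl27* (-0.44, adjusted p = 0.0335), *Rpl13a* (-0.27, adjusted p = 0.0332) and *Rpl35a* (-0.24, adjusted p = 0.0332) fell as well, to between 74.1% and 84.5% of the wild-type mean.

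The other members of the ribosome lay on the same side. Of 83 cytosolic ribosomal protein genes tested, 79 had a negative log2 fold change, 59 were lower at an unadjusted p value under 0.05 (against 5.89% of all genes) and 46 separated the genotypes (against 3.26% of all genes), while 0 were higher by any of these measures other than sign. The median log2 fold change of the list was -0.15, beside 0.00218 over all genes. Both subunits took part, with a median of -0.15 over 49 proteins of the large subunit and -0.16 over 34 of the small subunit. *Rpl5*, *Rpl41* and the ribosomal protein-like *Rpl7l1* were on the positive side, with log2 fold changes from 0.02 to 0.10. Many of these genes have near-identical pseudogenes between which reads may be divided, so that single members are less certain than their direction in common.

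**Figure D3:**
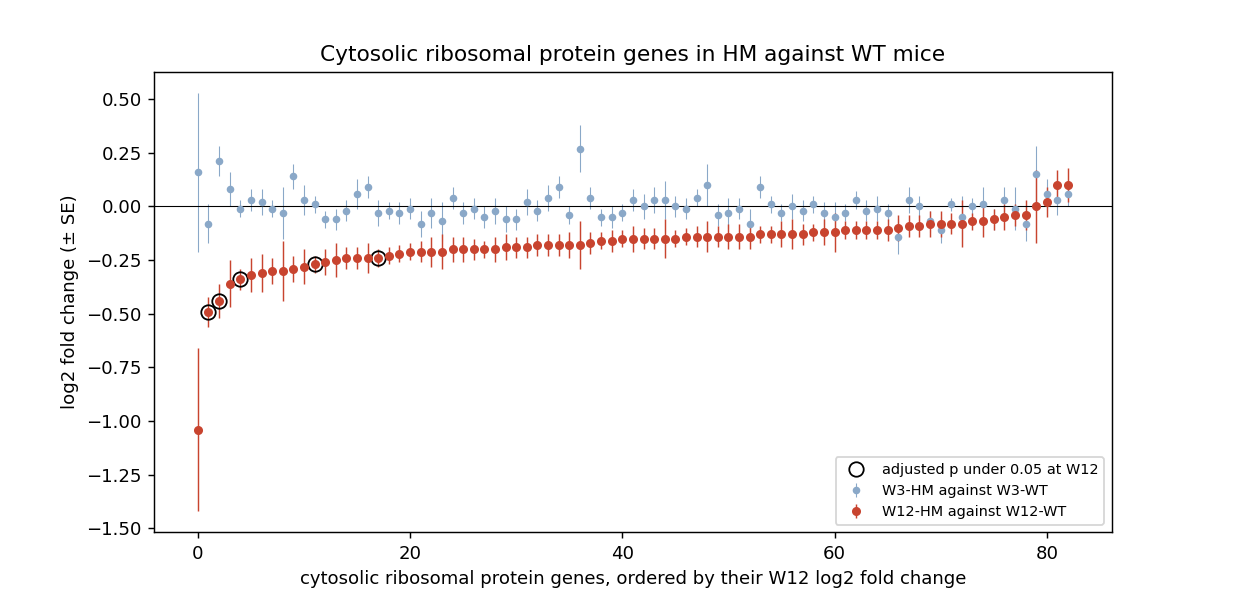
Log2 fold change (± SE) of the 83 cytosolic ribosomal protein genes in HM against WT mice, in the order of their W12 values, with W12 in red and W3 in blue. At W12, 79 genes lie below 0, and the 5 circled genes passed an adjusted p value of 0.05. At W3 the points scatter about 0.

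By mouse, the mean log2 level of the 83 genes was -0.12, -0.20, -0.20 and -0.20 in the 4 W12-HM mice relative to the W12-WT mean, and 0.03, -0.04, 0.03 and -0.02 in the 4 W12-WT mice. The genotypes did not overlap. In shares of all normalized counts, these genes took 0.742% to 0.791% in W12-HM and 0.812% to 0.875% in W12-WT. The count of 5 DEGs was 0 without W12-WT 3, W12-WT 4 or W12-HM 1 and also when the heterozygotes were left out of the fit, and it was 8 without W12-HM 4, whereas the median stayed between -0.18 and -0.14 in these fits. With each mouse left out in turn, 52 to 62 members had an unadjusted p value under 0.05.

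Ribosomal protein mRNAs are known for a run of pyrimidines at their 5′ end, the terminal oligopyrimidine motif, through which mTOR signalling sets their translation. To show this feature, the start regions of the DEGs of the ribosome are given from RefSeq (GRCm38.p6), each with 12 bases before and 18 from the annotated start on, and with a pyrimidine run in capitals. A run is a C followed by at least 6 bases that are each C or T, with that C within 10 bases of the annotated start on the strand of the gene, and the capitals begin at the C of this kind nearest to the start, so that pyrimidines before it stay in lower case. Of the 5 genes, 2 hold such a run, *Rpl13a* (chr7:45128728-45128757, minus strand) and *Rpl35a* (chr16:33056470-33056499, plus strand, of whose 3 annotated starts the one nearest to a run is shown). The other 3 hold none, namely *Rpl13* (chr8:123102338-123102367, plus strand), *Rps13* (chr7:116334173-116334202, minus strand) and *Rpl27* (chr11:101442233-101442262, plus strand).
Rpl13a: accctgcgacaagaCCTCCTCCTTTCCCag
Rpl35a: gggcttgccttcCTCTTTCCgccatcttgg
Rpl13: cctttcgcctgattttgattggcgtttgag
Rps13: agcaaacgtcggtgagtggcgtcacttcct
Rpl27: ctctgttcctgtctgctgctcgtgctgcta

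RefSeq start regions matched 12253 of the genes tested by symbol. Such a run was in 30 of the 61 ribosomal protein genes with a sequence (49.2%) and in 15.4% of the 12192 other genes tested with a sequence. Among ribosomal protein genes, those with the run had a median log2 fold change of -0.19 and those without -0.14, and 24 of 30 and 21 of 31 were lower at an unadjusted p value under 0.05. Over the other genes both medians were close to 0 (0.003 with the run and 0.001 without). The lower level was thus found in ribosomal protein genes with and without the run. Annotated starts can differ from those used in the PFC, so that the absence of these letters from a window says nothing of the transcript itself.

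Other parts of the translation and energy apparatus were examined for comparison. Of 39 translation factors, 0 passed the adjusted threshold in limma. At an unadjusted p value under 0.05, 1 was higher (against 5.5% of all genes) and 5 lower (against 5.89%). Most nuclear genes of the respiratory chain were lower in sign, 72 of 81, with a median of -0.07, of which 0 passed the adjusted threshold and 16 were lower at an unadjusted p value under 0.05 (against 5.89% of all genes). *Cox8a*, a subunit of cytochrome c oxidase, came closest, at 7934 to 9039 in W12-WT and 6614 to 7535 in W12-HM (log2 fold change -0.25, SE 0.05, adjusted p = 0.0679). In W12-HT against W12-WT, *Cox8a* passed (-0.33, adjusted p = 0.0264 in limma). There, 77 of the 81 respiratory chain genes were lower in sign, with a median of -0.11. The mean level of this list also separated the genotypes, from -0.169 to -0.025 in W12-HM and -0.008 to 0.010 in W12-WT. Of 82 mitochondrial ribosomal proteins, 6 were lower and 0 higher at an unadjusted p value under 0.05. The lower count was near the share over all genes (5.89%). Their median was -0.05, and the mice overlapped. Of 35 genes of the mTOR pathway, 0 passed, with a median of 0.01. At an unadjusted p value under 0.05, 3 were higher (against 5.5% of all genes) and 1 lower (against 5.89%).

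Further lower DEGs were 1 of 19 markers of GABA interneurons, *Pvalb*, and 2 of 32 synaptic vesicle genes, *Vamp1* and *Cplx1* (0.116% of all genes were lower DEGs). *Pvalb*, the calcium buffer that names parvalbumin interneurons, was at 815, 785, 893 and 859 in W12-WT and at 557, 683, 620 and 555 in W12-HM (log2 fold change -0.48, SE 0.08, adjusted p = 0.0332). *Vamp1*, a vesicle SNARE of fast synapses, was at 3602, 3882, 4118 and 3926 in W12-WT and at 2720, 3115, 3027 and 3054 in W12-HM (-0.38, SE 0.06, adjusted p = 0.016). *Cplx1*, which clamps and primes the release machinery, was at 16446 to 18305 in W12-WT and 13224 to 14654 in W12-HM (-0.33, SE 0.05, adjusted p = 0.0312). All 3 fell to between 72.0% and 79.6% of the wild-type mean without overlap. In bulk tissue, fewer cells of a type and less RNA per cell cannot be told apart.

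Among 19 markers of GABA interneurons, *Pvalb* was the only DEG in limma. At an unadjusted p value under 0.05, 5 were lower (against 5.89% of all genes) and 1 higher (against 5.5%). The markers of different interneuron classes differed in sign. *Sst*, a peptide of another interneuron class, was at 4355 to 4985 in W12-WT and 3647 to 4287 in W12-HM (log2 fold change -0.28, SE 0.06, adjusted p = 0.105). *Vip*, of yet another class, was at 1183 to 1353 in W12-WT and 1422 to 1719 in W12-HM (0.31, SE 0.07, adjusted p = 0.108). *Gad1*, which makes GABA in all of these cells, was at 7098 to 8829 and 6401 to 7531 (-0.18, SE 0.07, adjusted p = 0.333).

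A list of 25 genes of parvalbumin cells and fast release was put together after the values were seen and is given as a description. It held the 3 DEGs above and 23 members with a negative log2 fold change (median -0.23). At an unadjusted p value under 0.05, 12 members were lower (against 5.89% of all genes) and 0 higher (against 5.5%). By mouse, the mean log2 level of the list was -0.378 to -0.097 in W12-HM and -0.135 to 0.107 in W12-WT, so that the genotypes overlapped. *Nefh*, the heavy neurofilament, was at 1531 to 1702 in W12-WT and 1233 to 1433 in W12-HM (-0.32, SE 0.06, adjusted p = 0.0675). *Syt2*, a calcium sensor of fast release, had a log2 fold change of -0.56 (adjusted p = 0.131). *Erbb4*, a receptor of parvalbumin cells, and *Kcnc2*, one of their potassium channels, had 0.07 and -0.09.

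Synaptic vesicle genes as a whole were mixed, with 2 of 32 lower as DEGs (*Vamp1* and *Cplx1*). At an unadjusted p value under 0.05, 8 were lower (against 5.89% of all genes) and 4 higher (against 5.5%). *Kcnip3*, a calcium-binding partner of potassium channels, was a further neuronal DEG at the edge of the threshold, at 3906 to 4186 in W12-WT and 3355 to 3557 in W12-HM (log2 fold change -0.25, SE 0.05, adjusted p = 0.0498). *Stac2*, which binds voltage-gated calcium channels, was at 3489, 3556, 3480 and 3245 in W12-WT and at 2868, 2740, 2850 and 2660 in W12-HM (-0.31, SE 0.04, adjusted p = 0.0112). *Stac2* separated the mutants from the W12-HT mice too, which lay from 3048 to 3198.

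*Crh*, the peptide that starts the hormonal stress response and that some cortical interneurons make, rose. It was at 89.3, 90.2, 96.1 and 99.6 in W12-WT and at 150, 152, 139 and 145 in W12-HM, a narrow range in both genotypes (log2 fold change 0.64, SE 0.11, adjusted p = 0.0332). The W12-HT mice had 88.5 to 113, below every homozygote, though the difference between W12-HM and W12-HT did not pass (0.51, adjusted p = 0.423). Of 29 neuropeptide genes, *Crh* was the only DEG. At an unadjusted p value under 0.05, 5 were higher (against 5.5% of all genes) and 6 lower (against 5.89%). *Npy* was among the latter (1473 to 1655 in W12-WT and 1304 to 1348 in W12-HM, adjusted p = 0.129). It passed in W12-HT against W12-WT (log2 fold change -0.39, adjusted p = 0.0144 in limma).

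Receptors and adhesion molecules of the synapse gave 0 DEGs in limma. Of 35 glutamate receptor genes, 8 were higher (against 5.5% of all genes) and 4 lower (against 5.89%) at an unadjusted p value under 0.05 (median 0.05). *Grm5*, the metabotropic receptor coupled to Shank through Homer, was at 5119 to 6184 in W12-WT and 6323 to 7025 in W12-HM (log2 fold change 0.26, SE 0.06, adjusted p = 0.129). *Grin2b*, a subunit of the NMDA receptor, was at 15914 to 18814 and 19612 to 22885 (0.26, SE 0.07, adjusted p = 0.148). Neither overlapped between genotypes. At the same unadjusted p value, 3 of 17 GABA receptor genes were higher and 0 lower, and 9 of 33 trans-synaptic adhesion molecules were higher and 1 lower. *Ptprf*, a receptor phosphatase that organizes synapses, was at 2690 to 2995 in W12-WT and 3234 to 3645 in W12-HM (0.24, SE 0.06, adjusted p = 0.106).

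Genes that neuronal activity induces were examined because they report recent firing. None of 27 passed the adjusted threshold in limma. At an unadjusted p value under 0.05 there were 11 higher (against 5.5% of all genes) and 3 lower (against 5.89%). *Fos* was at 136, 174, 187 and 190 in W12-WT and at 393, 456, 401 and 479 in W12-HM (log2 fold change 1.33, SE 0.37, adjusted p = 0.187). *Junb* was at 759 to 859 in W12-WT and 1177 to 1520 in W12-HM (0.72, SE 0.20, adjusted p = 0.182), and *Egr3* lay the other way, at 4524 to 5992 and 3584 to 4900 (-0.31, adjusted p = 0.208). The mean level of the list was 0.21 to 0.43 in W12-HM and -0.12 to 0.05 in W12-WT, without overlap, and the median log2 fold change was 0.23. A W12-HT mouse that is part of the fit stood far below the others for this list, at -0.38. With the heterozygotes left out of the fit, 3 of the 27 passed, all higher, namely *Fos* (adjusted p = 0.000458), *Junb* (0.00841) and *Nr4a1* (0.0434), whereas none of these 3 passed in the other 9 alternatives or with any W12-WT or W12-HM mouse left out. Of 56 chromatin regulators 0 passed, and 45 were higher in sign (median 0.06). At an unadjusted p value under 0.05, 6 were higher and 2 lower (against 5.5% and 5.89% of all genes).

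Several DEGs have structural or muscle-related roles. *Krt80*, an epithelial keratin, was at 240, 460, 374 and 359 in W12-WT and at 169, 130, 145 and 150 in W12-HM (log2 fold change -1.23, SE 0.17, adjusted p = 0.00921). *Gm35853*, an antisense transcript that shares 263 exonic bases with *Krt80*, had 47.3 to 98.9 and 33.6 to 43.7 (-0.93, adjusted p = 0.108), and reads of these genes cannot be told apart where they overlap. *Myl4*, a myosin light chain best known from the heart atrium, was at 660, 667, 612 and 675 in W12-WT and at 515, 443, 455 and 400 in W12-HM (-0.53, SE 0.08, adjusted p = 0.0112). *Myl12b*, a regulatory light chain of nonmuscle myosin, fell by 0.30 on the log2 scale (adjusted p = 0.0341). Its exons share 739 bases with a further gene model of the same name, which lay the other way (0.28, unadjusted p = 0.0182, adjusted p = 0.329), so that the division of reads between the models is uncertain. Of 21 genes of the myosin apparatus, these were the 2 DEGs, where 0.116% of all genes were lower DEGs. At an unadjusted p value under 0.05, 4 of the 21 were lower (against 5.89% of all genes) and 2 higher (against 5.5%).

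The remaining DEGs were of varied kinds. *Igfbp4*, which binds insulin-like growth factors, was at 2194 to 3130 in W12-WT and 1751 to 2073 in W12-HM (log2 fold change -0.55, SE 0.10, adjusted p = 0.036). *Tmbim1*, a membrane protein linked to the control of cell death, was at 732 to 880 and 578 to 644 (-0.40, adjusted p = 0.0332). *Gm26673*, antisense to the potassium channel gene *Kcna6* with 2355 exonic bases in common, was at 86.4 to 98.7 and 33.1 to 49.6 (-1.09, SE 0.17, adjusted p = 0.016), while *Kcna6* itself had a log2 fold change of -0.10 (adjusted p = 0.623). *Gm7334*, a processed pseudogene, was listed at 0 in all 4 W12-WT mice and at 127, 64.7, 32.8 and 40.9 in W12-HM (adjusted p = 0.0332). It was also at 0 in 3 of 4 W12-HT mice, and since pseudogenes share reads with their parent genes, no fold change is given.

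D cyclins and Wnt genes other than *Ccnd1* gave 0 DEGs. *Ccnd2*, the cyclin closest in function to *Ccnd1*, was at 1879 to 1992 in W12-WT and 2196 to 2795 in W12-HM, higher in every mutant (log2 fold change 0.35, SE 0.08, adjusted p = 0.106). The *LTO1* gene, which shares 1100 exonic bases with *Ccnd1* on the opposite strand, had 0.11 (adjusted p = 0.816).

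Markers of other cell types were measured beside these groups. All 17 oligodendrocyte and myelin markers had a negative log2 fold change (median -0.43), 0 passed the adjusted threshold in limma and 12 were lower at an unadjusted p value under 0.05 (against 5.89% of all genes). Without W12-WT 1, 3 of them passed the adjusted threshold (*Apod*, *Cldn11* and *Myrf*), and without W12-HM 3, 2 passed (*Mbp* and *Myrf*). *Mbp*, the myelin basic protein gene, was at 32282, 45232, 49481 and 42850 in W12-WT and at 26099, 30240, 39594 and 25437 in W12-HM (log2 fold change -0.49, SE 0.13, adjusted p = 0.177). The genotypes overlapped, since W12-WT 1 was lower than W12-HM 3. The summed level of the list was 86333 to 137342 in W12-WT and 72521 to 108951 in W12-HM, with none of its members at 0, and the mean level by mouse was -0.533, -0.279, -0.061 and -0.780 in the 4 W12-HM mice, in the order used above for the ribosomal list, and -0.416, 0.041, 0.270 and 0.105 in the 4 W12-WT mice. The part of myelin in the other differences was not tested.

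At an unadjusted p value under 0.05, 5.89% of all genes were lower and 5.5% higher. Of the other cell types, 4 of 10 oligodendrocyte precursor markers and 4 of 15 mural and meningeal markers were lower by this measure. Of 15 microglial markers, 0 passed this p value in either direction. Astrocyte markers had a median of -0.05, with 1 of 14 lower. Cortical neuron markers were present in every mouse, with 3 of 13 upper-layer genes higher and 4 of 17 deep-layer genes lower at an unadjusted p value under 0.05. Striatal markers, which mark tissue beside the PFC, summed to 14216 to 27192 in W12-WT and 12220 to 28911 in W12-HM, so that this level varied more within a genotype than between genotypes. No marker of these lists apart from *Pvalb* was a DEG.

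**Figure D4:**
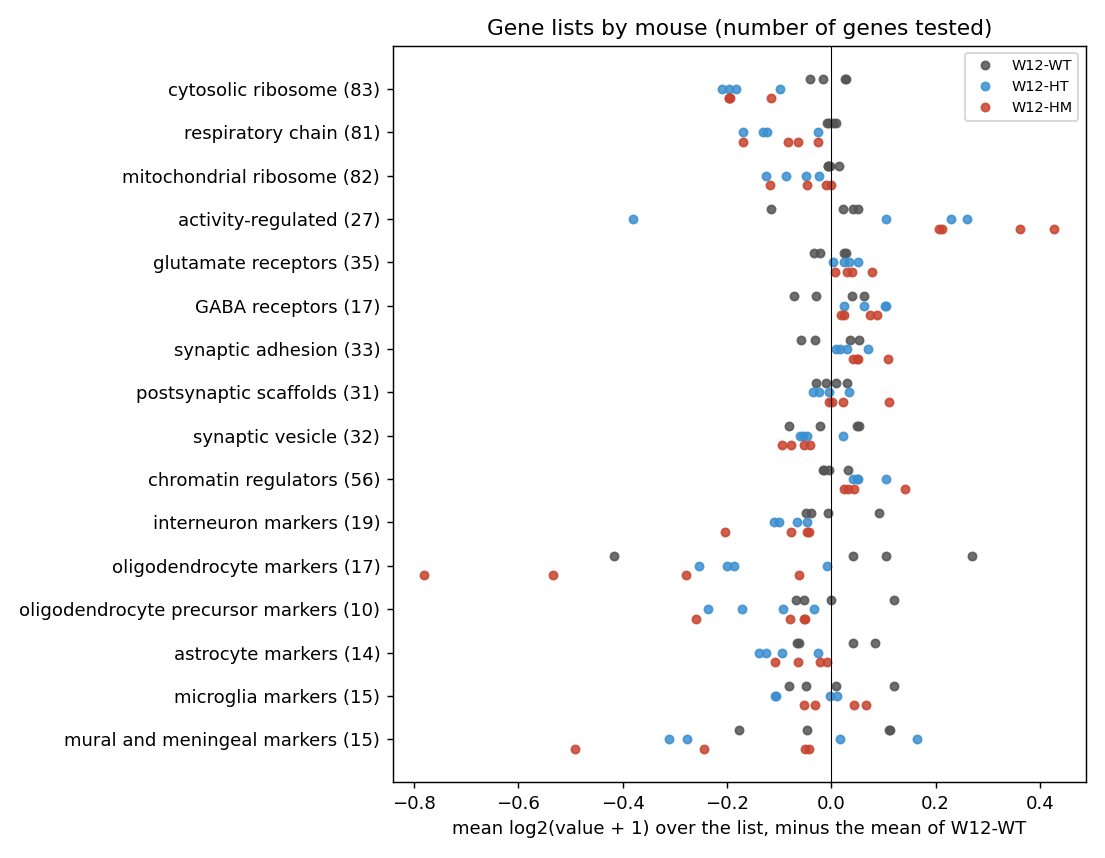
Mean log2 normalized count (plus 1) over the genes of each list, relative to the W12-WT mean, with a point per mouse. W12-HM and W12-WT do not overlap for the cytosolic ribosome, the respiratory chain and activity-regulated genes. For oligodendrocyte markers the genotypes overlap, and the range within a genotype is wider than the distance between the genotype means. The W12-HM mean is -0.413, with an SD of 0.312 in W12-HM and 0.294 in W12-WT.

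Homozygotes were also compared with heterozygotes in the same fit of the 3 genotypes. Of 17218 genes, 2 differed (0.0116%), both lower in W12-HM, where 1045 genes (6.07%) had an unadjusted p value under 0.05. These were *Shank2* and *Lars2*, the mitochondrial leucyl-tRNA synthetase (log2 fold change -1.08, adjusted p = 0.0295). *Lars2* was at 4325, 4565, 4673 and 6261 in W12-WT and at 2749, 3429, 4100 and 3028 in W12-HM (-0.58, SE 0.15, adjusted p = 0.164). The W12-HT mice were at 7921, 5010, 7828 and 7508. The wild-type mean of 4956 thus lay between the means of W12-HM (3326) and W12-HT (7067). This gene also varied widely within a genotype, from 2264 to 10227 in W3-HM. The count of 2 was 0 without W12-HT 1, W12-HM 1 or W12-HM 2 or with the wild types left out of the fit, and 1 without W12-HT 2, W12-HT 4 or W12-HM 4. The 24 DEGs were chosen by values of the same W12-HM mice, so that their differences from W12-HT are not independent of that choice. Between W12-HM and W12-HT, 14 of the 24 DEGs had an unadjusted p value under 0.05, among them *Ccnd1* (-0.66), *Krt80* (-0.64) and *Acp7* (-1.84). None of the 5 ribosomal protein DEGs did. Their log2 differences between W12-HM and W12-HT lay between -0.07 and 0.04, and the median over the 83 ribosomal protein genes was -0.002. Against the same wild-type mice, the ribosomal list had a median of -0.15 in W12-HM and -0.16 in W12-HT, and both values share the W12-WT mice. Some other DEGs also passed in W12-HT against W12-WT, such as *St8sia2* (0.75, adjusted p = 0.0414 in limma), *Pvalb* (-0.45, 0.0457) and *Myl12b* (-0.38, 0.0165). Others did not, such as *Crh* (0.12, 0.686) and *Acp7* (0.15, 0.871).

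The W3 mice are other animals and allow the W12 values to be set beside an independent comparison of the same genotypes. Of the 24 DEGs, 20 had the same sign in W3-HM against W3-WT (57.5% of all genes did), 12 of these with an unadjusted p value under 0.05 (6.28% of all genes in either direction). At W3, 4 were past the adjusted threshold (0.0755% of all genes), namely *Shank2* (-1.28), *Gm26793* (4.99), *Ccnd1* (-0.43) and *Krt80* (-0.75). *St8sia2* (0.65, adjusted p = 0.164) and *Crh* (0.48, adjusted p = 0.461) also lay on the same side at W3 without passing. The effect was larger in size at W12 for 23 of the 24 genes, which were chosen by their W12 values.

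The difference between ages was tested itself in a fit of all 27 mice, and 2 of 17218 genes passed (0.0116%), both with a lower effect at W12. *Ccnd1* had a log2 fold change of -1.39 at W12 and -0.43 at W3 (difference -0.96, adjusted p = 0.0241). *Rpl27* had -0.44 at W12 and 0.21 at W3 (difference -0.64, adjusted p = 0.0241). Of the 83 ribosomal protein genes, 77 had a lower effect at W12 than at W3, 40 of them with an unadjusted p value under 0.05 (against 2.71% of all genes). Their median log2 fold change at W3 was -0.01, and 0 were lower (3.4% of all genes) and 3 higher (2.88%) at an unadjusted p value under 0.05 there. Of the 25 genes of parvalbumin cells and fast release, a list made with these values known, 11 were lower at W3 at an unadjusted p value under 0.05 (3.4% of all genes), with a median of -0.17. The count of 2 age-dependent genes rested on single mice, being 0 without W12-WT 1, 2 or 4, W3-WT 2, 3 or 4 or W3-HM 1, 2 or 3, 1 without W12-HM 1, 2 or 3 or W3-HM 4, and 5 without W3-HM 5.

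**Figure D5:**
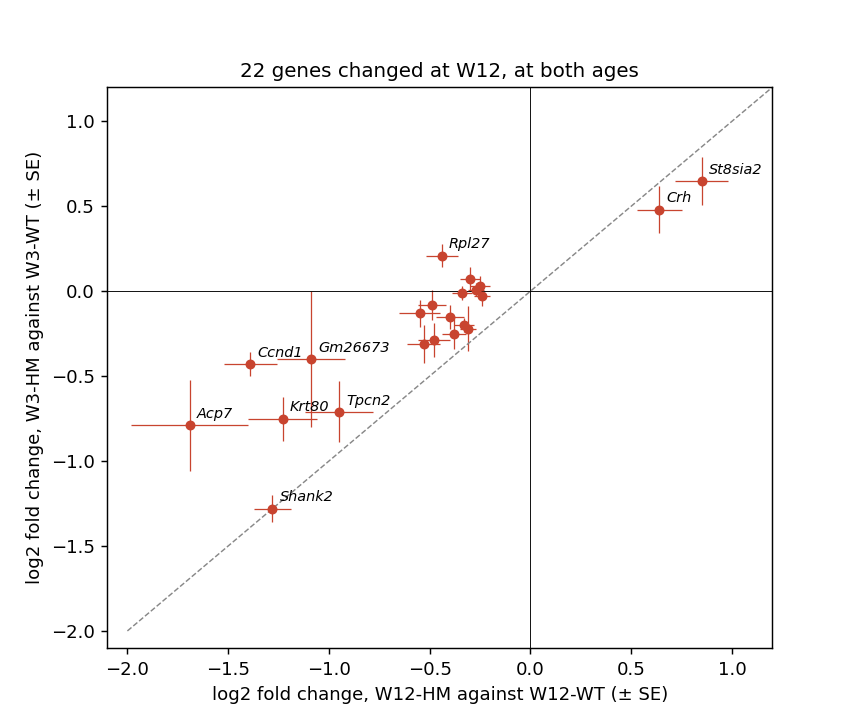
Log2 fold change (± SE) of 22 DEGs of W12-HM in W12 mice (horizontal) and in W3 mice (vertical), with the dashed line where both are equal; *Gm26793* and *Gm7334* are left out for their size. *Shank2* lies on the line at -1.28, *Ccnd1* lies above it at -1.39 and -0.43, and *Rpl27* lies above 0 at W3.

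Totals of normalized counts, in units of 1e+06, were 29.49 to 30.09 in W12-HM and 29.72 to 30.08 in W12-WT, and mitochondrially encoded genes took 5.42% to 5.81% and 5.41% to 6.23%. Low values clustered at multiples of a step that differed by mouse, which places the value of 1 read at about 0.878 to 1.096 in W12-HM and 0.842 to 1.151 in W12-WT. In the same units, the depth was then about 27.4 to 33.7 and 26.1 to 35.7 reads, so that the genotypes overlapped in depth, and values under 10, such as those of *Fgf15*, rest on a few reads each.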

How the data were processed

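Poly-A RNA from single mice, with an RNA integrity number above 7, was sequenced as unstranded TruSeq libraries. Per the labels, groups were genotype and age. The authors ran Salmon 1.1.0 (GRCm38, GC bias option), brought its abundances to genes by tximport, and deposited a signal, the DESeq2-normalized counts of all 27 mice (the submitters' processing notes give R 3.6.2 and DESeq2 1.26.0). Values were not whole, so that no count test was run, and a value at 0 can be a failed estimate. Depth was inferred from the spacing of low values and is approximate.

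Log2 of the value plus 1 was tested with limma 3.58.1 in R 4.3.3 with a variance trend, for genes with a mean of at least 10, two-sided, with Benjamini-Hochberg adjustment and a threshold of 0.05. The 12 W12 mice were fitted together, and ages were compared in all 27. Positions are from GENCODE M21, which matched 18744 of 18757 genes. Genes were named if past the threshold, if within 5 Mb of *Shank2* with an unadjusted p value under 0.05, or if among the 4 smallest p values (for markers also the 3 highest means) of a list; *Shank1*, *Shank2* and *Shank3* and the 2 smallest p values of each further contrast were added. Genes named outside this rule were chosen after their values were seen. Members and lists were chosen with earlier results of these data known. Alternatives covered the offset, filter, scaling, weights, length and GC, replicate block, threshold, gene type and each mouse left out. On simulated data (17261 genes, 100 changed at each size) the fit found 50 with a log2 change of 0.5 and 83 with a change of 1, with 13 false calls.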

Additional observations from a re-analysis of the deposited data

Results flagged for a closer look

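For 150 sets of 4 mice (genes and list levels by genotype), a mouse far from the other 3 was found in 11, where chance gives about 1 in 20. W12-HM 4 stood apart for *Rpl13* (4400, against 3549 to 3685), for the mean log2 level of chromatin regulators (0.14, against 0.02 to 0.04) and for that of oligodendrocyte precursor markers (-0.26, against -0.08 to -0.05). W12-HM 3 stood apart for *Tmbim1* (644, against 578 to 588), *Urah* (17.2, against 10.8 to 11.4) and *Mrgpre* (325, against 359 to 365). W12-HM 1 was higher than the others in the cytosolic ribosome (-0.12, against -0.20 in the other 3), and W12-HM 2 was higher in trans-synaptic adhesion molecules (0.11, against 0.04 to 0.05). Of the wild types, W12-WT 1 stood apart for *Shank3* (10354, against 8733 to 8774) and choroid plexus and ependymal markers (-0.93, against 0.23 to 0.44), and W12-WT 2 for *Bc1* (397, against 484 to 496).

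The effect of the homozygous deletion differed between ages for *Ccnd1* (-0.96) and *Rpl27* (-0.64), as the effect at W12 minus that at W3 on the log2 scale, with an adjusted p value of 0.0241 in limma for both.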

How the results depend on the processing

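The 24 DEGs of W12-HM were 72 at an adjusted p value under 0.1, 10 with a fold change over 1.5, 11 with only the compared groups fitted, 84 with sample weights and 15 after the length and GC correction, and 5 to 45 with a mouse left out. The 5 ribosomal protein DEGs were 13 at an adjusted p value under 0.1 and with sample weights, 0 with a fold change over 1.5 or only the compared groups fitted and 2 after the length and GC correction, and 0 to 8 with a mouse left out. Of the 3 DEGs near *Shank2*, *Gm26793* and *Tpcn2* have means under 100. With a mean of at least 100 required they were therefore not tested, and *Ccnd1* still passed. With a mouse left out, *Tpcn2* passed in only 1 of 8 fits (adjusted p from 0.0257 to 0.179), and *Gm26793* and *Ccnd1* in all 8. The 2 genes that differed between W12-HM and W12-HT were 0 with only these groups fitted and 1 with sample weights, and 0 to 2 with a mouse left out. The 2 genes whose effect differed between ages were 6 with sample weights, and 0 to 5 with a mouse left out. Fewer samples were fitted where mice or groups were left out, and the cause of the other shifts was not tested. Of the genes described without passing, *Fos*, *Junb* and *Nr4a1* passed with only the compared groups fitted, and *Cox8a* and *Nefh* in 2 and 3 of 10 alternatives. *Bc1* (adjusted p = 0.0325), *Ptprf* (0.0499) and *Apod* (0.0427) passed with sample weights. With the replicate block, *Ccnd2* (0.0488), *Mbp* (0.0391), *Myrf* (0.0144) and *Apod* (0.0186) passed. With a mouse left out, *Syt2* (0.0414) passed without W12-WT 1, *Sst* (0.0477) without W12-HM 3 and *Cox8a* (0.0331) without W12-HM 4. *Shank2* stayed past the threshold in every alternative. The log2 fold change of *Shank3*, near 0, ranged from -0.03 to 0.08 with a mouse left out and changed sign without W12-WT 2, W12-WT 3 or W12-WT 4 (-0.00) and without W12-HM 4 (-0.03).

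For W12-HM and W12-WT mice with the same replicate number, deviations from the group means had r of 0.12, 0.0786, -0.0196 and -0.0351. Of 4 homozygotes, 2 were closest to their own number. With 4 mice per genotype, these values cannot show whether the numbers pair the mice, and the main fit did not pair them. With the replicate block there were 41 DEGs, 20 of them among the 24, with 5 ribosomal protein DEGs, 2 DEGs near *Shank2*, 2 genes between W12-HM and W12-HT and 3 between ages.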
